A study of Mus musculus with 21 samples.

Results

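The genes described here are 35 genes of DNA replication and mitosis, taken by name from a list of cell-cycle genes, among the 35019 gene names on a 2-colour Agilent mouse array. They were measured in livers of adult male C57BL/6J mice, an inbred strain, that had eaten a high-fat diet for 12 weeks after 3 weeks of adaptation to normal-fat food. The diet contained 0.33% (w/w) quercetin, a plant flavonoid, in the HF-Q group (10 mice) and no quercetin in the HF group (11 mice), and both groups were fasted for 2 to 4 hours before the tissue was taken. Each array set 1 liver, labelled with Cy5, against a pool of all samples, labelled with Cy3, so the values below are log2 ratios to the pool unless they are called log2 fold changes, which are HF-Q minus HF. The list was divided by role into 14 S phase genes, 15 genes of mitotic entry and mitosis, and 6 genes that control G1 and its exit. The comparison asks whether quercetin in a high-fat diet altered the hepatic expression of these genes.

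Cells prepare for division by loading the MCM helicase on replication origins in G1, and cyclin-dependent kinases start the helicase in S phase. Cyclins A and B with Cdk1 then drive entry into mitosis, and the spindle checkpoint holds chromosome separation until every kinetochore is attached. Most of these genes are transcribed mainly in cycling cells, where E2F factors act at S phase promoters and FOXM1 and MYB complexes act later in the cycle. Hepatocytes of the adult liver are mostly quiescent and divide again after tissue loss or injury. In whole liver, fewer cycling cells and less RNA per cycling cell cannot be told apart.

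The promoters of Mcm3, Mcm5, Mcm6, Ccnb2, Birc5 and Ccne1, members of the pairs that varied together most closely from liver to liver, and of Cdk1, the kinase of mitotic entry, are shown with the motifs that are counted after them. Each run is the 250 bases before the gene start on the gene's own strand, from RefSeq on build GRCm38.p6, and capitals mark 3 kinds of motif searched on both strands: E2F sites (TTTCCCGC, TTTGGCGC, TTTCGCGC or TTTGCCGC), the cell-cycle homology region, CHR (TTTGAA or TTTAAA), and the CCAAT box (CCAAT, which reads ATTGG on the other strand). Capitals run on where sites overlap.
Mcm3: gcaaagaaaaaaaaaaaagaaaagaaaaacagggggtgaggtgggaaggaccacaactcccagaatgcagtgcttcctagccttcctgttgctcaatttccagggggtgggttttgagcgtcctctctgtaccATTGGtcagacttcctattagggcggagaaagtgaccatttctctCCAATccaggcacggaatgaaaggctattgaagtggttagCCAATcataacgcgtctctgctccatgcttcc
Mcm5: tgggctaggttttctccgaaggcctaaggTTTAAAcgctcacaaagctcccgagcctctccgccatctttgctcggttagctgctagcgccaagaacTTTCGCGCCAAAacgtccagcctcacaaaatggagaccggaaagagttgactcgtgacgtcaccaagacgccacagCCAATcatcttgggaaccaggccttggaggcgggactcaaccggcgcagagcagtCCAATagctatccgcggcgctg
Mcm6: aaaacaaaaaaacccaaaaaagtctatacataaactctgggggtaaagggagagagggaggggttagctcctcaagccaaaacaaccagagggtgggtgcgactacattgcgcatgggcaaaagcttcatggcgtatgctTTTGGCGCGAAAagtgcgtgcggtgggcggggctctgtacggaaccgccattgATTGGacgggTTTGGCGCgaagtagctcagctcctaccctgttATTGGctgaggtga
Ccnb2: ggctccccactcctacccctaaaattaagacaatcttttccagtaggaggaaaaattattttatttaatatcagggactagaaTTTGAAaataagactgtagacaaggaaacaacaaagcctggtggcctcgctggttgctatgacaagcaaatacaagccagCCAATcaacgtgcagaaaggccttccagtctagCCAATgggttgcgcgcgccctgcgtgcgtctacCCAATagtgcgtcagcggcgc
Birc5: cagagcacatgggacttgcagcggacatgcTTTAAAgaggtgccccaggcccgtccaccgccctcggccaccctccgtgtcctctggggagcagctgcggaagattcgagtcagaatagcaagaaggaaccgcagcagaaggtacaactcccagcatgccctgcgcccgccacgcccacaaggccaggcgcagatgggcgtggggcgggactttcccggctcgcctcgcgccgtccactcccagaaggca
Ccne1: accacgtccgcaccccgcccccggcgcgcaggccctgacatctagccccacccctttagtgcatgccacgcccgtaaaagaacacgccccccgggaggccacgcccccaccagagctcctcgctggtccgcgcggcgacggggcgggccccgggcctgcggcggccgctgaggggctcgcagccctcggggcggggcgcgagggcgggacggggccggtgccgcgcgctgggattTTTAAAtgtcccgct
Cdk1: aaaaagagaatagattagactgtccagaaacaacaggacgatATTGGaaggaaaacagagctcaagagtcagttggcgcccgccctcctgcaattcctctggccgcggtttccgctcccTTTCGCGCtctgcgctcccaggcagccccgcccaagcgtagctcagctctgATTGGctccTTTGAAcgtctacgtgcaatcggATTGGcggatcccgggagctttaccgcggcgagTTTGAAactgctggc
These windows lie at chr1:20820313-20820562 (minus strand) for Mcm3, chr8:75109259-75109508 (plus strand) for Mcm5, chr1:128359706-128359955 (minus strand) for Mcm6, chr9:70421555-70421804 (minus strand) for Ccnb2, chr11:117848987-117849236 (plus strand) for Birc5, chr7:38107491-38107740 (minus strand) for Ccne1 and chr10:69352913-69353162 (minus strand) for Cdk1. Of the 35 members, 28 had a promoter in the RefSeq table, and for the 2 with several promoters the first listed was used. An E2F site stood in 4 of 12 S phase promoters (Mcm5, Mcm6, Mcm7 and Cdc6) and in 1 of 12 mitosis promoters (Cdk1), against 1.86% of all 32851 promoters. A CHR motif stood in 3 of 12 S phase and 9 of 12 mitosis promoters, against 25.17% of all promoters. A CCAAT box stood in 8 of 12 S phase and 11 of 12 mitosis promoters, against 33.85%. The other member promoters were of G1 genes, of which Cdk2 held an E2F site and a CCAAT box, and Ccne1 a CHR motif. Over all 28 member promoters, 6 held an E2F site, 13 a CHR motif and 20 a CCAAT box. Mcm6 held 3 E2F matches, and Cdk1 held 2 CHR matches and 3 CCAAT boxes. The letters are matches only, and binding was not measured.

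The brightest probe of 28 of the 35 members was well above background in the liver channel on at least 10 of the 21 arrays, and these 28 were tested. The filter kept 13 of 14 S phase genes, 5 of 6 G1 genes and 10 of 15 mitosis genes. By the brightest probe, no liver had a signal well above background for Cdc6, which loads the MCM helicase. The same held for Top2a, the topoisomerase that untangles sister chromatids, and for Bub1 and Bub1b, kinases of the spindle checkpoint. It also held for Aurkb, the kinase of the chromosomal passenger complex, and Kif11, the motor that separates spindle poles. Cdc6 had 2 probes on the array, and Top2a, Bub1, Bub1b, Aurkb and Kif11 had 1 each. Ccne2, a cyclin of the G1 to S step, was well above background in 1 of 21 livers, an HF-Q liver. Among the genes tested, Foxm1, a transcription factor of the mitotic programme, was well above background in 6 of 10 HF-Q and 8 of 11 HF livers. Ccnb1, a B-type cyclin, was well above background in 10 of 10 HF-Q and 10 of 11 HF livers, and each of the other 26 was so in all 21 livers. No member's brightest probe was saturated, and cross-hybridisation with related genes or pseudogenes was not tested.

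None of the 28 members differed between the diets at an adjusted p under 0.05 in limma, which called 0 of 19716 genes (0%), and no member's groups were without overlap (0.00507% of all genes, which is 1 gene). At an unadjusted p under 0.05 limma called 0 of 28 members, against 5.93% of all genes (3.02% higher and 2.91% lower in HF-Q). The log2 fold change was above 0 for 11 members and below 0 for 17, with a median of -0.011, and 47% of all genes were above 0, with a median of -0.0043. The median was -0.011 over the 13 S phase genes (6 above 0 and 7 below) and -0.014 over the 10 mitosis genes (3 above 0 and 7 below). HF-Q livers did not always lie on the side of the HF median that the sign gave. For Rrm1 2 of 10 did, for Ccnd1 3 of 10, and for Mcm7, Plk1 and Aurka 4 of 10 each. Such counts of livers were not made over all genes. The 95% interval of the log2 fold change lay inside 0.25 in either direction for 21 of 28 members, and inside 0.5 for 27 of 28. The exception was Cdkn1a.

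Among the licensing and helicase genes, Mcm2 to Mcm7 encode the 6 subunits of the MCM ring. Mcm2 ranged between -0.36 and 0.21 in HF-Q livers (median -0.075), against -0.13 and 0.15 in HF livers (median 0.015). Its log2 fold change was -0.066 ± 0.061 (SE, limma adjusted p = 0.976, n = 10 and 11), with HF-Q livers on both sides of the HF range. Its SD was 0.20 in HF-Q and 0.071 in HF livers, and that of Mcm7 was 0.20 in HF-Q and 0.080 in HF livers. The difference in spread was not tested. Mcm7 ranged between -0.24 and 0.41 in HF-Q livers (median -0.034), and between -0.15 and 0.10 in HF livers (median 0.0091), with a log2 fold change of 0.034 ± 0.063 (SE). HF-Q replicate 7 held the highest value of both groups for Mcm6 (0.38) and Mcm7 (0.41).

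Mcm3 had a median of -0.083 in HF-Q livers (range -0.27 to 0.098), against 0.0083 in HF livers (range -0.27 to 0.16), and a log2 fold change of -0.055 ± 0.056. Mcm4 had a median of 0.16 in HF-Q livers (range -0.0030 to 0.29) and 0.11 in HF livers (range -0.23 to 0.40), and a log2 fold change of 0.053 ± 0.059. The HF-Q values of Mcm4 lay within the HF range, and the ranges of Mcm3 ended at almost the same low value. Mcm5 had a median of 0.14 in HF-Q livers (range -0.17 to 0.39) and 0.18 in HF livers (range -0.14 to 0.30), and a log2 fold change of -0.011 ± 0.066. Mcm6 had a median of -0.22 in HF-Q livers (range -0.40 to 0.38) and -0.11 in HF livers (range -0.39 to 0.28), and a log2 fold change of -0.051 ± 0.085. For Mcm6, 8 of 10 HF-Q livers lay below the HF median, although the groups overlapped over almost their whole range. Cdt1, which brings the MCM ring to origins, had a median of -0.12 in HF-Q and -0.13 in HF livers, and Gins2, a subunit of the active helicase, had a median of 0.064 in HF-Q and 0.15 in HF livers. Their log2 fold changes were 0.0074 ± 0.065 for Cdt1 and -0.045 ± 0.076 for Gins2.

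**Figure D1:**
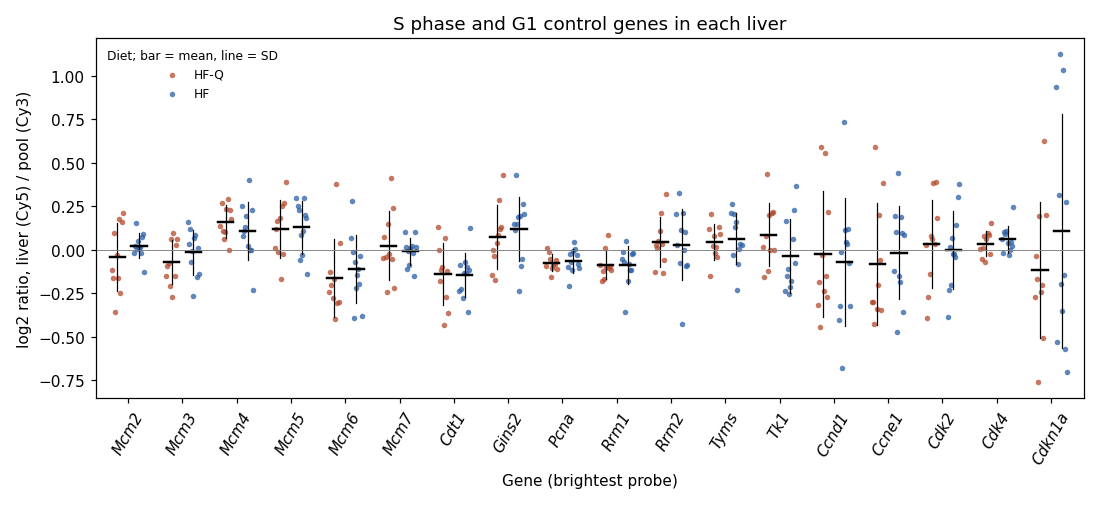
Log2 ratio of each liver to the pool (vertical axis) for the 13 S phase and 5 G1 control genes tested, with HF-Q livers (n = 10) left of HF livers (n = 11) for each gene; points are livers, bars are means and lines are 1 SD. Pcna and Cdk4 form tight clusters, while Cdkn1a, Ccnd1 and Ccne1 spread over the widest ranges in both groups.

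The genes of DNA synthesis included the steadiest transcripts of the list. Pcna, the sliding clamp of the replicative polymerases, had a median of -0.084 in HF-Q livers (range -0.16 to 0.012), against -0.072 in HF livers (range -0.21 to 0.045). Its log2 fold change was -0.012 with a 95% interval of -0.079 to 0.055, and its residual SD of 0.061 stood at the 2.41 percentile of all genes tested. Rrm1, the large subunit of ribonucleotide reductase, had a median of -0.10 in HF-Q livers (range -0.18 to 0.082) and -0.069 in HF livers (range -0.36 to 0.052), and an interval of -0.090 to 0.091. The groups overlapped for both genes.

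Rrm2, the small subunit of the same enzyme and the one that is degraded outside S phase, had a wider spread, with values between -0.13 and 0.32 in HF-Q livers (median 0.031) and between -0.43 and 0.33 in HF livers (median 0.025). Tyms, which makes thymidylate, had a median of 0.048 in HF-Q and 0.034 in HF livers and a log2 fold change of -0.019 ± 0.055. Tk1, the thymidine kinase of S phase cells, ranged between -0.16 and 0.43 in HF-Q livers (median 0.047), against -0.26 and 0.37 in HF livers (median -0.11). Its log2 fold change of 0.12 ± 0.081 was the highest of the list and did not pass the test (limma adjusted p = 0.940, unadjusted p = 0.141). For Tk1, 8 of 10 HF-Q livers lay above the HF median, and HF replicate 11, at 0.37, was above 9 of the 10 HF-Q livers. A further Tk1 probe gave a log2 fold change of 0.13. The Tk1 probe used lies on chromosome 11 at 117676845 to 117676904 (minus strand) of mouse build mm9, per the array files.

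Cdkn1a, Ccnd1 and Ccne1, all genes of G1 control, spread most between livers. Cdkn1a, the p53-induced inhibitor p21 of cyclin-dependent kinases, ranged between -0.76 and 0.62 in HF-Q livers (median -0.19), against -0.71 and 1.12 in HF livers (median -0.15). HF replicates 1, 4 and 7 stood at 0.93, 1.12 and 1.04, above every HF-Q liver, while the other 8 HF livers lay at 0.31 or below. The log2 fold change of -0.22 ± 0.22 (SE) was the largest of the list in size and did not pass the test (limma adjusted p = 0.976), and its 95% interval was -0.68 to 0.23. It was -0.31 without HF-Q replicate 9 and -0.12 without HF replicate 4, which is smaller in size than the -0.18 of Birc5 and the -0.15 of Mki67 over all livers. The residual SD of Cdkn1a, 0.56, stood at the 99.4 percentile of all genes. Within slides 1, 2 and 3, which each held livers of both diets, its log2 fold change was 0.30, -0.11 and -0.75. The probe lies on chromosome 17 at 29237377 to 29237436 of build mm9, and was spotted 10 times on each array.

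Ccnd1, the D-type cyclin that links growth signals to the cycle, ranged between -0.44 and 0.59 in HF-Q livers (median -0.17) and between -0.68 and 0.73 in HF livers (median -0.014). Ccne1, the cyclin partner of Cdk2, ranged between -0.43 and 0.59 in HF-Q livers (median -0.25) and between -0.47 and 0.44 in HF livers (median 0.087). Their log2 fold changes were 0.044 ± 0.15 for Ccnd1 and -0.064 ± 0.12 for Ccne1, with overlap over nearly the whole range. The same livers held the extremes of both cyclins: HF-Q replicate 4 was highest and HF-Q replicate 3 lowest among HF-Q livers, and HF replicate 5 was highest and HF replicate 4 lowest among HF livers. Cdk2, the kinase of the G1 to S step, had a median of 0.046 in HF-Q and -0.023 in HF livers. Cdk4, the kinase partner of D cyclins, was again steady, with medians of 0.035 in HF-Q and 0.044 in HF livers and a residual SD at the 7.41 percentile.

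Among the genes of mitotic entry, Ccnb2, a B-type cyclin, ranged between -0.19 and 0.27 in HF-Q livers (median -0.037), against -0.16 and 0.46 in HF livers (median 0.012). Its log2 fold change was -0.095 ± 0.070 (limma adjusted p = 0.960). The other B-type cyclin, Ccnb1, had a median of 0.035 in HF-Q livers (range -0.17 to 0.32) and -0.0053 in HF livers (range -0.20 to 0.20), with a log2 fold change of 0.050 ± 0.058. Ccna2, the cyclin of S phase and early mitosis, had a median of 0.076 in HF-Q livers (range -0.14 to 0.39) and 0.0099 in HF livers (range -0.24 to 0.44). Cdk1 had a median of -0.13 in both HF-Q and HF livers, and its log2 fold change was -0.0030 ± 0.075. The groups overlapped for all 4 genes.

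Foxm1 ranged between -0.35 and -0.033 in HF-Q livers (median -0.19) and between -0.47 and 0.22 in HF livers (median -0.068), and 8 of 10 HF-Q livers lay below the HF median. Its log2 fold change was -0.067 ± 0.062 (limma adjusted p = 0.976), from a signal near background, and was -0.36 in the signals processed by the scanner software (adjusted p = 0.907). Plk1, a kinase of centrosomes and kinetochores, had a median of 0.049 in HF-Q and 0.036 in HF livers. Aurka, the kinase of spindle poles, ranged between -0.52 and 0.47 in HF-Q livers (median 0.053) and between -0.35 and 0.34 in HF livers (median 0.080). Their log2 fold changes were -0.0046 ± 0.061 for Plk1 and 0.045 ± 0.105 for Aurka, and for both genes the HF-Q livers fell on either side of the HF median.

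**Figure D2:**
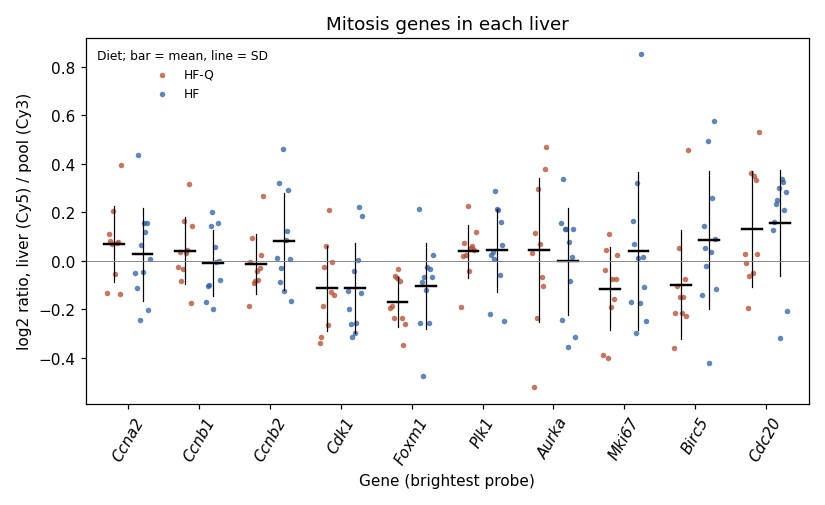
Log2 ratio of each liver to the pool (vertical axis) for the 10 mitosis genes tested, with HF-Q livers (n = 10) left of HF livers (n = 11); points are livers, bars are means and lines are 1 SD. The groups overlap for every gene, and single livers stand high for Mki67 (HF replicate 8, 0.85) and Birc5 (HF-Q replicate 10, 0.46).

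The lowest p-value of the list belonged to Birc5, which encodes survivin, a subunit of the chromosomal passenger complex. Birc5 ranged between -0.36 and 0.46 in HF-Q livers (median -0.15), against -0.42 and 0.58 in HF livers (median 0.052). Of the HF-Q livers, 8 of 10 lay below the HF median, and HF-Q replicate 10 lay above all but 2 HF livers. The log2 fold change of -0.18 ± 0.10 (SE, n = 10 and 11) did not pass the test (limma unadjusted p = 0.0899, adjusted p = 0.879), and its 95% interval was -0.40 to 0.031. The probe lies on chromosome 11 at 117716978 to 117717037 of build mm9.

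Mki67, the gene of the proliferation antigen Ki-67 that coats mitotic chromosomes, ranged between -0.40 and 0.11 in HF-Q livers (median -0.075), against -0.30 and 0.85 in HF livers (median 0.012). HF replicate 8 alone stood at 0.85, and the next HF liver was at 0.32. The log2 fold change was -0.15 ± 0.11 (limma adjusted p = 0.946), -0.073 without HF replicate 8, and -0.064 by a second Mki67 probe. The mean over 11 macrophage genes was also highest of all livers in HF replicate 8, at 0.58. It was next highest in HF replicate 6, at 0.33, where Mki67 was at 0.012. In HF replicate 5, the HF liver next highest in Mki67 (0.32), the macrophage mean was -0.17. Its range was -0.51 to 0.0012 in HF-Q livers and -0.60 to 0.58 in HF livers. Its part in the Mki67 value was not tested. Cdc20, the activator of the anaphase-promoting complex, had a median of 0.027 in HF-Q livers (range -0.20 to 0.53) and 0.23 in HF livers (range -0.32 to 0.34), and a log2 fold change of -0.024 ± 0.093. The Cdc20 means were 0.13 in HF-Q and 0.16 in HF livers.

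**Figure D3:**
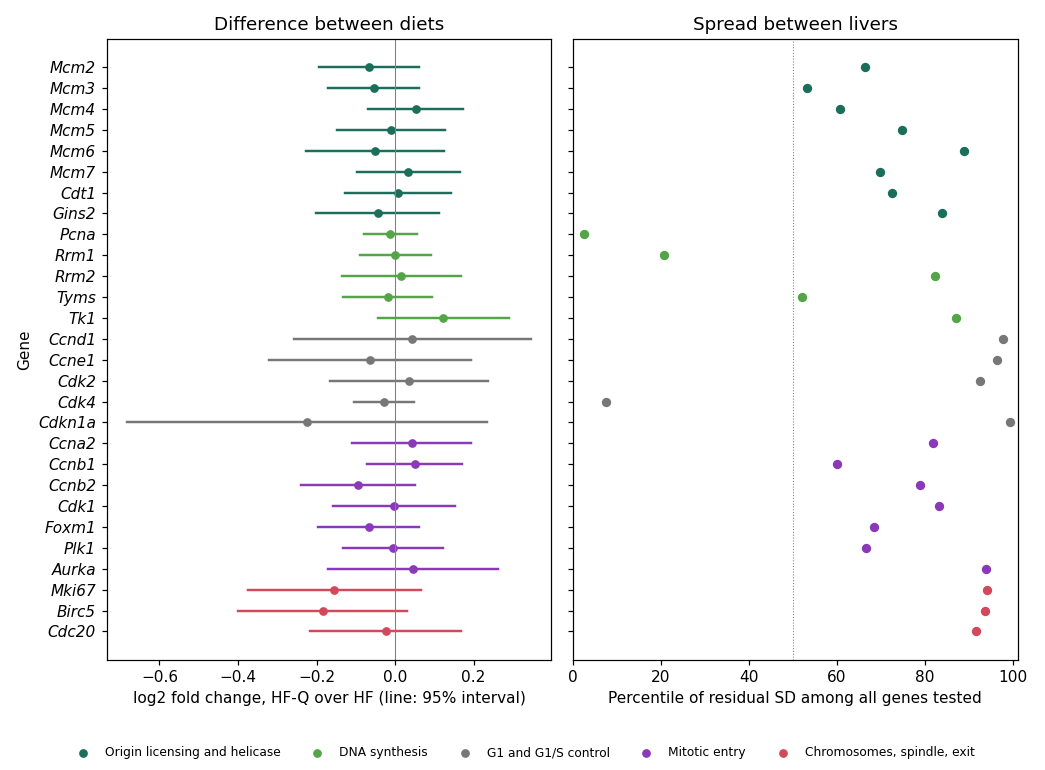
Left, log2 fold change of HF-Q over HF for the 28 members tested, with 95% intervals (lines) from limma; right, the percentile of each member's residual SD between livers among all 19716 genes. Every interval includes 0, and 25 of 28 members lie above the 50th percentile of spread.

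The spread of most members between livers of a diet was above that of the typical gene. The median residual SD was 0.17 over the 28 members tested and 0.13 over all genes, and 25 of 28 members stood above the 50th percentile. The members were not replicates of each other, and a few livers held many of the extremes. Among HF-Q livers, replicate 10 was highest for 10 of 28 members, including Ccna2, Ccnb2, Aurka, Birc5 and Cdc20, and replicate 7 was highest for 6, including Mcm3, Mcm4, Mcm6 and Mcm7. Among HF livers, replicate 4 was lowest for 8 members, including Ccnd1, Ccne1, Ccna2, Cdk1 and Mki67, and it was the liver with the highest Cdkn1a. HF replicates 1 and 7, also high in Cdkn1a, were lowest for only 1 and 2 members and highest for 4 and 3. HF replicate 6 was lowest for 7 members, including Birc5 and Cdc20. The share of probes well above background was 45.95% for HF-Q replicate 10 and 44.17% for HF-Q replicate 7, the lowest of all arrays. It was 46.63% for HF replicate 4 and 48.11% for HF replicate 6, with a range of 44.17% to 51.29% over all arrays.

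S phase and mitosis were set against each other by the mean log2 ratio of each liver over the 13 and the 10 genes tested. The S phase mean had a median of -0.015 in HF-Q livers (range -0.085 to 0.15), against 0.010 in HF livers (range -0.11 to 0.072). The mitosis mean had a median of -0.044 in HF-Q livers (range -0.18 to 0.20) and 0.0073 in HF livers (range -0.17 to 0.22). The SD between livers was 0.068 for the S phase mean and 0.12 for the mitosis mean, which rest on unlike numbers of genes. Over 43 other replication genes with a value in every liver, the SD was 0.064 in HF-Q and 0.027 in HF livers. Over 32 other mitosis genes it was 0.056 in HF-Q and 0.058 in HF livers, so the wider mitosis spread was not seen there in HF-Q livers. HF-Q replicate 7 had the highest S phase mean and HF replicate 5 the highest mitosis mean. HF replicate 6 was the lowest HF liver by both means.

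**Figure D4:**
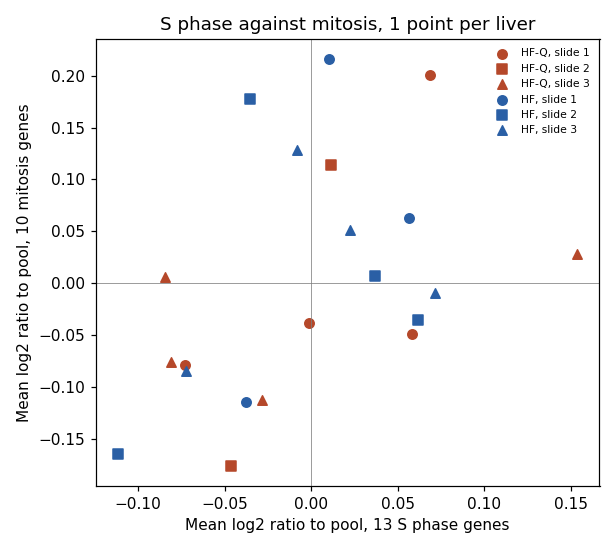
Mean log2 ratio to the pool over 13 S phase genes (horizontal axis) and 10 mitosis genes (vertical axis), 1 point per liver, coloured by diet and shaped by slide. HF-Q and HF livers lie among each other, and the mitosis means span a wider range than the S phase means.

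Of 10 pairs of members chosen by their biology, 9 could be measured over the 21 livers, and Mcm5 with Mcm6 was the 1 pair that passed after adjustment over the 9. Its Pearson r was 0.704 (permutation p = 0.0004, adjusted p = 0.0036) and its Spearman rho was 0.762 (permutation p = 0.00011, adjusted p = 0.00099). Without the 2 livers farthest from the median of Mcm5, HF replicate 11 and HF-Q replicate 6, r was 0.626. It was 0.641 in HF-Q and 0.782 in HF livers, and 0.757, 0.779 and 0.808 within slides 1, 2 and 3. The other 8 pairs did not pass by either measure. Ccnb1 with Cdk1, the subunits of 1 kinase, had r = 0.167 (rho 0.178, permutation p = 0.467 and 0.436, adjusted p = 0.701 and 0.655). Ccnd1 with Cdkn1a had r = -0.345 (rho -0.212, permutation p = 0.125 and 0.356, adjusted p = 0.441 and 0.645).

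All 378 pairs of the 28 members were then taken as 1 family, a choice made after the data were seen. By Pearson's r, 4 pairs had an adjusted p under 0.05, with permutation tests of 100000 resamples, and by rho 4 pairs did, 2 of them in common. Mcm3 with Mcm5 had r = 0.798 (adjusted p = 0.0063, rho 0.757, adjusted p = 0.0283), and 0.735 without the 2 farthest livers. It was 0.925 in HF-Q and 0.702 in HF livers, and 0.868, 0.836 and 0.807 within the slides. Mcm5 with Mcm6 remained past the threshold by both measures in this family (adjusted p = 0.0378 for r and 0.0283 for rho). The pairs that passed by rho alone were Mcm3 with Mcm6 and Cdkn1a with Aurka. Mcm3 with Mcm6 had rho 0.732 (adjusted p = 0.0378) and r = 0.661 (adjusted p = 0.0592), and r was 0.644 without the 2 farthest livers and 0.818, 0.820 and 0.663 within the slides. Cdkn1a with Aurka had rho 0.713 (adjusted p = 0.0406) and r = 0.558 (adjusted p = 0.147), and r was 0.640 without HF replicates 4 and 7, 0.631 in HF-Q and 0.653 in HF livers, and 0.912, 0.556 and 0.620 within the slides.

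Ccnb2 with Birc5 had the highest r of the 378 pairs, 0.817 (adjusted p = 0.0063), but its rho of 0.648 did not pass (adjusted p = 0.0997). Its r was 0.810 without the 2 farthest livers, 0.771 in HF-Q and 0.819 in HF livers, and 0.827, 0.960 and 0.611 within slides 1, 2 and 3. Ccnd1 with Ccne1 had r = 0.743 (adjusted p = 0.0063) and rho 0.668 (adjusted p = 0.0687). It was 0.583 without HF replicate 5 and HF-Q replicate 4, the livers with the highest level of both cyclins in each diet, and 0.847, 0.318 and 0.766 within the slides. Over all 378 pairs, 58 had an unadjusted p under 0.05 by Pearson's r, 47 of them positive and 11 negative. The median r was 0.144 among pairs of S phase genes, 0.254 among pairs of mitosis genes and 0.079 between an S phase and a mitosis gene. Neither the count nor the medians were set against pairs of other genes, so they are not shown to be particular to the members. The points of a pair share arrays, pool and normalization.

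**Figure D5:**
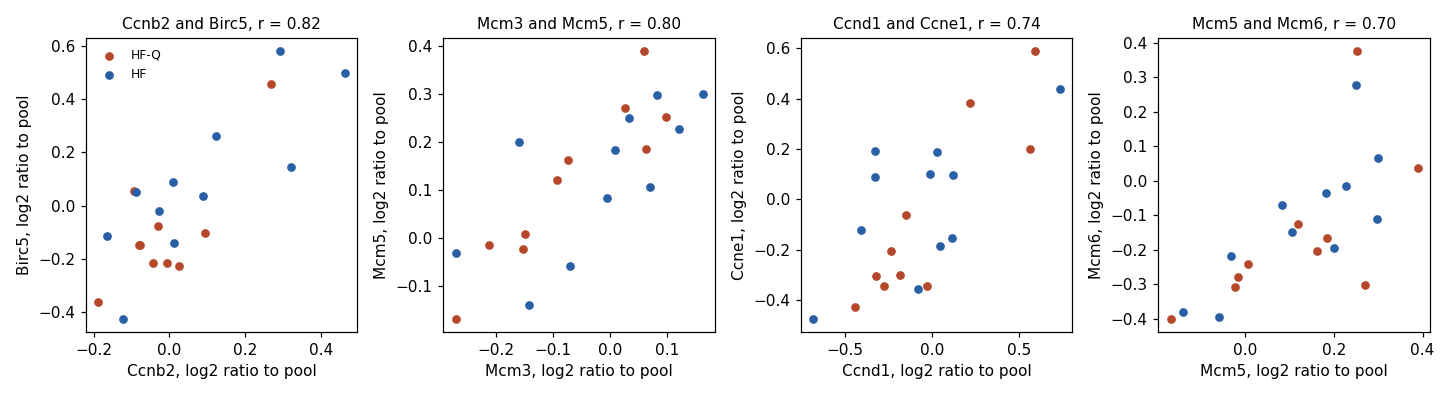
Log2 ratios to the pool of the 4 member pairs with a Pearson adjusted p under 0.05 over 378 pairs, 1 point per liver, HF-Q and HF coloured apart. HF-Q and HF livers lie among each other in each panel, and the Ccnd1 and Ccne1 panel shows the few livers high in both cyclins.

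Likeness was also ranked across the array, by Pearson's r over the 21 livers against 19227 other genes with a value in every liver, as a description with no test. Birc5 ranked first with Ccnb2, and Ccnb2 ranked 2 with Birc5. Mcm3 ranked first with Mcm5, and Mcm5 ranked 2 with Mcm3. Mcm5 and Mcm6 each ranked 3 with the other. Ccne1 ranked 7 with Ccnd1, and Ccnd1 ranked 27 with Ccne1. Apart from Mcm5 with Mcm6, these pairs were picked for a high r in the same livers. The ranks of all of them, Mcm5 with Mcm6 included, restate that r and add no support. Of the other 8 pairs chosen by their biology, ranked in 1 direction each, the ranks lay between 1171 (Mki67 with Mcm6) and 17222 (Cdkn1a with Ccnd1). Cdk1 ranked 4417 with Ccnb1, Ccnb2 ranked 4108 with Ccna2, and Pcna ranked 9252 with Mcm2.

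Other genes of the same pathways were taken from lists chosen with earlier results of these data known. None of their members passed at an adjusted p under 0.05 in limma. Of 44 other replication genes tested out of 47 listed, 1 was higher and 1 lower in HF-Q at an unadjusted p under 0.05 (3.02% higher and 2.91% lower over all genes), with a median log2 fold change of -5e-04. E2f7, a repressor of E2F targets, had a log2 fold change of 0.11 ± 0.042, Pold2, a subunit of DNA polymerase delta, 0.10 ± 0.051, and Rfc1, a subunit of the clamp loader, -0.079 ± 0.048.

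Of 32 other mitosis genes tested out of 59 listed, 0 were higher and 4 lower in HF-Q at an unadjusted p under 0.05, against 3.02% higher and 2.91% lower over all genes, with a median of -0.018 and a lowest adjusted p of 0.771. The 4 were Tacc3, which stabilises spindle microtubules (-0.14 ± 0.049), Ncaph (-0.13 ± 0.056) and Ncapd2 (-0.11 ± 0.047), subunits of condensin I, and Spc25, a subunit of the kinetochore complex NDC80 (-0.21 ± 0.098). Of 19 other G1 genes tested out of 20 listed, 1 was higher and 0 lower, with a median of -0.0078 and a lowest adjusted p of 0.741. That gene was Cdkn2b, the Cdk4 and Cdk6 inhibitor p15, at 0.17 ± 0.052 (limma unadjusted p = 0.00270), and at 0.67 in the signals processed by the scanner software. The other 3 named by rule were Cdkn1c (-0.12 ± 0.067), Cdkn2c (0.13 ± 0.091) and Myc (0.33 ± 0.18), and Myc was at 0.16 without HF-Q replicate 4. The median Myc ratio was -0.25 in HF-Q and -0.38 in HF livers, and the highest HF-Q liver stood at 1.55.

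Because Cdkn1a is a p53 target, 16 further p53 targets out of 18 listed were set beside it. At an unadjusted p under 0.05, 0 were higher and 4 lower in HF-Q, against 3.02% higher and 2.91% lower over all genes, with a median of -0.040 and a lowest adjusted p of 0.741. The 4 were Pmaip1, which encodes the pro-apoptotic protein Noxa (-0.18 ± 0.052), Aen, an apoptosis nuclease (-0.21 ± 0.083), Phlda3, an inhibitor of Akt (-0.25 ± 0.11), and Ccng1, cyclin G1 (-0.16 ± 0.075). The mean over the 16 targets was 0.064, 0.14 and 0.16 in HF replicates 1, 4 and 7, the livers with high Cdkn1a, and 0.14 in HF replicate 3, where Cdkn1a was at 0.31. In HF-Q replicate 9, the HF-Q liver with the highest Cdkn1a (0.62), it was 0.0021. Its range was -0.12 to 0.083 in HF-Q livers and -0.12 to 0.16 in HF livers.

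The first marker of every cell type list was well above background on all 21 arrays, among them Alb for hepatocytes, Cd3e for lymphocytes and Adgre1 for macrophages, so transcripts of several cell types were in every sample. None of the markers tested passed at an adjusted p under 0.05 in limma. The mean over 9 lymphocyte genes had a range of -0.16 to 0.10 in HF-Q and -0.25 to 0.27 in HF livers, and that over 5 erythroid genes averaged -0.11 ± 0.12 in HF-Q and 0.019 ± 0.12 in HF livers (SD, n = 10 and 11). Their part in the values of the replication and mitosis genes was not tested.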

How the data were processed

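Liver RNA from 21 mice was measured on 2-colour Agilent arrays, 1 liver (Cy5) against a pool of all samples (Cy3) per array, with no dye swap. The study had 24 mice, and the authors left out 3 arrays for uneven hybridisation, per the labels. The deposited scanner output, made with Agilent Feature Extraction 10.7.3.1 per the submitters' processing notes, holds mean and background intensity per spot that is not normalized, processed intensity, and flags for saturation, outliers and signal above background, per the file headers. A deposited table of log2 values, whose columns all had a median of 7.92 and followed the log2 Cy5 signal at r = 0.992 to 0.999, served only as an alternative. How it was centred was not given in the sources used here.

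Background was corrected by normexp (offset 50) and ratios were normalized by loess within arrays in limma 3.58.1 (R 4.3.3). Spots marked as outliers were left out, and spots of a probe were averaged. Each array had 62976 spots, 3671 of them controls. Probes well above background in Cy5 on at least 10 of 21 arrays were kept (26288 of 55681), and the brightest stood for its gene, which gave 19716 genes. The members took 70 spots and 52 probes. The offset draws ratios of dim genes toward 0. Gene names follow the array files, updated by RefSeq accession (GRCm38.p6) for 27235 probes. Per array, 44.17% to 51.29% of the probes had Cy5 signal well above background, and the number of arrays limits the precision.

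Diets were compared by limma (lmFit and eBayes, two-sided tests), and p-values were adjusted by Benjamini-Hochberg over all 19716 genes, with a threshold of 0.05. The fit was tested on simulated data. Pairs of members were tested by permutation. The members and lists were chosen with earlier results of these data known. All 35 members were named, and of each other pathway list the 4 genes of lowest p, whatever their result. A gene that this rule names is not reported here, but stayed in the tests and counts. Both diets were present on each of the 3 slides, slide 1 with 4 HF-Q and 3 HF, slide 2 with 2 HF-Q and 4 HF, and slide 3 with 4 HF-Q and 4 HF. Same-numbered HF-Q and HF arrays did not deviate together (r between -0.34 and 0.16, and 0 of 10 were most like their own number), so the replicate numbers were not taken as pairs. Alternatives changed the background correction, normalization, reference channel, filter, probe choice, variance model, array weights, slide and replicate blocks, and each liver was also left out once.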

Additional observations from a re-analysis of the deposited data

Results flagged for a closer look

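Birc5 stood at 0.46 in HF-Q replicate 10, and the next HF-Q liver was at 0.055. This gap was 0.492 of the whole HF-Q range, above the critical value of 0.466 for 10 livers. It was the 1 liver so found among the 30 groups of values searched in HF-Q livers, where chance gives about 1 in 20. Values of the 11 HF livers were not searched in this way, and among them Mki67 stood at 0.85 in replicate 8 with the next liver at 0.32. HF-Q replicate 10 was highest among HF-Q livers for 10 of 28 members, a count not made over all genes. Without HF-Q replicate 10 the log2 fold change of Birc5 was -0.25 (limma unadjusted p = 0.0160, adjusted p = 0.519), against -0.18 with it. That liver was flagged by its own Birc5 value, so the p-value without it adds no support for a difference.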

How the results depend on the processing

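The log2 fold change of HF-Q over HF passed an adjusted p of 0.05 for 0 members under every alternative tried, including each liver left out in turn. Over all genes limma called 0 except for 1 with array weights, 1 within slide 2 and 0 to 4 with 1 liver left out (1 without HF-Q replicate 10, 4 without HF replicate 2), none of them a member. At an unadjusted p under 0.05 members numbered 1 in the deposited table (Foxm1, -0.17), 1 with no filter (the dim Kif11, -0.14), 1 with array weights (Birc5, -0.27), 1 with the replicate block (Tk1, 0.16), 2 within slide 3 (Birc5, -0.20, and Ccnb2, -0.18) and 0 to 1 with 1 liver left out (Birc5 without HF-Q replicate 10 or HF replicate 6, Tk1 without HF replicate 11). The count for all genes at unadjusted p under 0.05 was 1169, against 239 with median centring, 1878 with no filter, 712 within slide 2, and 892 to 1545 with 1 liver left out. The S phase median was -0.016 to 0.020 and the mitosis median -0.065 to -0.0046 over the other alternatives. Within slides 1, 2 and 3 the S phase median was 0.010, -0.0044 and 0.0015 and the mitosis median -0.065, -0.046 and -0.061. With 1 liver left out they were -0.016 to 0.0043 and -0.045 to 0.0045. The replicate block changed no adjusted call. Signs turned as follows, for genes that had not passed the test, and the cause was not tested. Within slide 1 the opposite sign was found for Mcm2 (0.052), Mcm5 (0.11), Cdt1 (-0.20), Pcna (0.010), Rrm1 (-0.098), Tyms (0.059), Ccnd1 (-0.32), Cdk2 (-0.064), Cdkn1a (0.30), Ccna2 (-0.10), Ccnb1 (-0.030), Ccnb2 (0.016), Plk1 (0.025), Cdkn2c (-0.27) and Pold2 (-0.026). Within slide 2 the opposite sign was found for Mcm3 (0.022), Mcm4 (-0.0044), Ccnd1 (-0.11), Cdc20 (0.12), Cdkn2b (-8e-04) and Rfc1 (0.080). Within slide 3 the opposite sign was found for Mcm6 (0.0088), Pcna (0.0050), Rrm2 (-0.045), Ccne1 (0.18), Cdk4 (0.041), Cdk1 (0.13), Foxm1 (0.11) and Aurka (-0.20). With quantile-normalized Cy5 alone the opposite sign was found for Pcna (0.0095), Rrm1 (-0.034), Cdk4 (0.015), Ccna2 (-0.038), Cdk1 (0.067) and Cdc20 (0.020). With array weights the opposite sign was found for Rrm2 (-0.015), Tyms (0.0073), Ccnd1 (-0.052) and Cdk2 (-0.013). In the deposited table the opposite sign was found for Mcm5 (0.10), Cdt1 (-0.0089), Pcna (0.018) and Rrm1 (-0.0063). With median centring in place of loess the opposite sign was found for Pcna (0.034), Cdk4 (0.020) and Cdk1 (0.023). With the replicate number as a block the opposite sign was found for Cdk1 (0.027). With scaling between arrays the opposite sign was found for Rrm1 (-4e-04). In the signals processed by the scanner software the opposite sign was found for Mcm5 (0.019) and Plk1 (0.056). With the slide as a block the opposite sign was found for Rrm2 (-0.0065). Leaving out 1 liver turned the sign of Mcm5 (-0.041 to 0.021), Mcm7 (-0.0092 to 0.063), Cdt1 (-0.022 to 0.040), Rrm1 (-0.026 to 0.014), Rrm2 (-0.029 to 0.046), Tyms (-0.048 to 0.0030), Ccnd1 (-0.024 to 0.12), Cdk2 (-0.0040 to 0.083), Cdk1 (-0.039 to 0.030), Plk1 (-0.034 to 0.021), Aurka (-0.0019 to 0.11) and Cdc20 (-0.071 to 0.013). In the signals processed by the scanner software the log2 fold change kept its sign and was over 1.5 times larger in size for 13 of 28 members (Foxm1 at -0.36), and was 0.67 for Cdkn2b, 0.30 for E2f7 and -0.47 for Pmaip1. Dim signals limit Foxm1 and the 7 members not tested, and their ratios are drawn toward 0.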
